A study of Mus musculus with 4 samples.

Results

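The genes described here belong to the bone morphogenetic protein (BMP) pathway: the ligands Bmp2, Bmp4, Bmp6 and Gdf10, the secreted antagonist Grem1, the receptors Bmpr1a and Bmpr2, and the target genes Id1, Id2 and Id3. These 10 genes were picked by symbol from the 32285 genes of the count tables, and all 10 were present. They were measured by single-cell RNA sequencing of mouse brown adipose tissue (BAT), from which the stromal vascular fraction (SVF) was taken, the mixture of immune, stromal and vascular cells left once the fat-laden adipocytes have floated off. The 4 libraries were wild-type C57BL6/J mice of 10 weeks (WT), db/db mice of 8 weeks (marked db/db 8w in the plots), db/db mice of 16 weeks (db/db 16w) and mice on a high-fat diet (HFD, labelled as 10 weeks old), all labelled C57BL6/J. The db/db mice carry a mutation of the leptin receptor and become obese and diabetic, whereas HFD mice become obese on their food. The study's methods began the diet at 10 weeks and fed it for 10 weeks, so the labelled age does not settle how old the HFD mice were. Each library pooled the SVF of 3 mice and was the only one of its group. No test between groups was therefore possible, no p-value is given, and every interval below is a 95% interval for counting error alone.

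BMPs are secreted proteins of the TGF-beta family. A dimer of ligand brings together type 1 and type 2 receptors, the type 1 receptor phosphorylates SMAD proteins, and these enter the nucleus and switch on genes, among which the Id genes are the best known. ID proteins bind basic helix-loop-helix transcription factors and keep them off DNA, and in adipose tissue BMP signals are known for driving precursor cells towards the white or brown fat lineage, while secreted antagonists hold them back.

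Cells were kept at over 250 and under 6000 genes, over 500 and under 30000 unique molecular identifiers (UMIs, the count of distinct transcripts) and under 15% mitochondrial UMIs. This left 5944 cells in WT, 11648 in 8-week db/db, 5833 in 16-week db/db and 5462 in HFD, with median depths of 2733 to 6218.5 UMIs. The HFD library stood apart, with 68.5% of its barcodes over the mitochondrial limit and 31.3% kept, against 1.04% and 89.5% in 16-week db/db, and kept cells had a median mitochondrial share of 10.5% and 0.799% in these libraries. A cell was assigned to a lineage when at least 2 of the 6 marker genes of that lineage were seen and at least 75% of its marker UMIs were of that lineage. Stromal cells numbered 4078, 5491, 1121 and 1462 in WT, 8-week db/db, 16-week db/db and HFD, and monocytes and macrophages (Mono/MAC) 1276, 3176, 2396 and 1534. Endothelial cells numbered 18, 83, 1284 and 1093, so that WT, with fewer than 50, gave no endothelial value. Levels are CPM, the summed UMIs of a gene over the cells of a lineage per 1000000 UMIs of those cells. The leptin receptor gene Lepr had only 25, 16, 1 and 8 UMIs in these libraries and could not check the genotype. Pairs of libraries shared 7 to 25 barcodes among kept cells. The 16-week db/db library held Xist at 207 CPM against 0.187 to 0.688 CPM in the others, and a sum of 4 Y-linked genes at 17.7 CPM against 164 to 188 CPM, although the methods state that all mice were male. Sex therefore cannot be told apart from genotype and age in that library, and each 16-week db/db value stands beside those of 8-week db/db and HFD.

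Of the promoter windows given by RefSeq (GRCm38.p6), 8 of the 10 genes had an entry, and 2 are shown because their genes, both on chromosome 14, differed from WT in opposite directions in db/db stromal cells. Each is the run of 250 bases just before the start site, in the direction of transcription, and neither overlaps an exon in the GENCODE M21 annotation. The windows of Bmp6, Bmpr1a, Bmpr2, Id2 and Id3 did overlap exons and are not shown. Capitals mark any match to GGCGCC or to GTCTG and its reverse complement CAGAC, letters known from SMAD binding sites, searched on both strands.
Bmp4, minus strand, chr14:46390670-46390919: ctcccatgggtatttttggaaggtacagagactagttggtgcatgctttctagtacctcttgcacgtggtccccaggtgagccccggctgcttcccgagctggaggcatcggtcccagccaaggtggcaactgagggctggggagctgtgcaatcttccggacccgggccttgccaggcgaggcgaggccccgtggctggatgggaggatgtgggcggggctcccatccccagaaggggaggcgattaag
Gdf10, plus strand, chr14:33923337-33923586: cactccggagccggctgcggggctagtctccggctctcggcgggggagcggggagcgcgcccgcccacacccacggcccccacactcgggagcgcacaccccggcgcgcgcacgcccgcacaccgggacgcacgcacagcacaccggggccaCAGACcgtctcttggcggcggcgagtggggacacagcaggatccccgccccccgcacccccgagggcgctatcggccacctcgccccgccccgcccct
The Bmp4 window held neither motif, and the Gdf10 window held a single CAGAC. Over all 32851 windows of this length GGCGCC was found in 9.59% and GTCTG or CAGAC in 42.2%. Among the other members, GGCGCC occurred in the windows of Bmpr1a, Bmpr2, Grem1 and Id2, and GTCTG or CAGAC in those of Bmp6, Grem1 and Id3. A match describes letters only.

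Ligand transcripts were found in different cells. Bmp2 (ENSMUSG00000027358, protein-coding, plus strand of chromosome 2, 133552159 to 133562885, GRCm38), a ligand best known for bone formation, was highest in Mono/MAC cells of WT. It stood there at 220 CPM in WT (210 to 230), 60.2 CPM in 8-week db/db (56.8 to 63.7), 3.93 CPM in 16-week db/db (3.06 to 4.96) and 7.19 CPM in HFD (5.72 to 8.92). WT was highest, no intervals overlapped, and both 16-week db/db and HFD were close to 0. The level was 3.65-fold lower than WT in 8-week db/db, 55.9-fold lower in 16-week db/db and 30.6-fold lower in HFD, or -1.87 (-1.98 to -1.76), -5.81 (-6.17 to -5.46) and -4.93 (-5.27 to -4.61) as log2 ratios. These ratios lay at percentiles 1.13, 0.800 and 0.402 of all genes tested in Mono/MAC cells. Once every cell had been thinned to 1000 UMIs, 16.1% of Mono/MAC cells in WT held a Bmp2 UMI (201 of 1252, 14.1 to 18.2), against 6.53% in 8-week db/db, 0.731% in 16-week db/db and 1.17% in HFD. Without thinning the shares were 38.6%, 16.9%, 2.59% and 4.17%, at median depths of 5383.5, 4852.5, 5856.5 and 5874.5 UMIs. Endothelial cells, which carried almost no Bmp2, served as background: 0 of 661 thinned cells held it in 16-week db/db, which allows a share of up to 0.454%, and 0.275% in HFD, at median depths of 1013.5 and 4348 UMIs before thinning.

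Stromal cells held Bmp2 as well, at 44.3 CPM in WT, 27.0 CPM in 8-week db/db, 5.41 CPM in 16-week db/db and 11.2 CPM in HFD. In WT this was 20.2% of the Mono/MAC level. RNA freed from broken cells enters every droplet, and 6 macrophage genes such as C1qb and Lyz2 were found in WT stromal cells at only 0.615% to 0.833% of their Mono/MAC level. The stromal log2 ratio to WT was -0.72 in 8-week db/db (-0.85 to -0.59), -3.03 in 16-week db/db (-3.70 to -2.44) and -1.99 in HFD (-2.32 to -1.68). Bmp2 was thus lower than WT in both lineages of all 3 obese libraries, by less than 2-fold in 8-week db/db stromal cells. Subsets of the stromal cells, described further with Bmp4, did not share this: Pi16/Dpp4 cells had 43.8 CPM in WT, 40.6 CPM in 8-week db/db and 43.3 CPM in HFD (29.4 to 61.4), whereas Col15a1/Col4a1 cells had 27.1, 13.1, 4.92 and 8.31 CPM in WT, 8-week db/db, 16-week db/db and HFD.

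Within macrophages, Bmp2 followed the subsets. Subsets were set by 5 genes each, a cell going to the list with most UMIs, and Lyve1/Folr2 macrophages (genes of perivascular resident macrophages) had the highest level in each library where they reached 50 cells. They stood at 291 CPM in WT (270 to 313), 190 CPM in 8-week db/db (173 to 208) and 26.1 CPM in 16-week db/db (17.9 to 36.6). Trem2/Gpnmb macrophages, whose genes mark lipid-associated macrophages, were at 3.99 CPM in 8-week db/db, 1.81 CPM in 16-week db/db and 2.07 CPM in HFD. In 8-week db/db the Lyve1/Folr2 level was 47.6-fold the Trem2/Gpnmb level, with a log2 ratio of 5.57 (4.21 to 7.46), and in 16-week db/db it was 14.4-fold, with 3.85 (3.05 to 4.67). A list of 11 immediate-early and heat-shock genes, described further on, differed between these subsets too, at 24674 against 4826 CPM in 8-week db/db and 7890 against 2607 CPM in 16-week db/db. The makeup of the lineage differed too: Trem2/Gpnmb cells were 56.1% of Mono/MAC cells in 16-week db/db and 15.9% in HFD, but 3.43% in 8-week db/db. Bmp2 was lower than WT inside subsets as well. In Lyve1/Folr2 macrophages the log2 ratio to WT was -0.61 in 8-week db/db (-0.78 to -0.44), under 2-fold, and -3.48 in 16-week db/db (-4.03 to -2.98). Il1b/Ccl4 macrophages (inflammatory cytokine genes) had 191 CPM in WT, 45.2 CPM in 8-week db/db, 9.93 CPM in 16-week db/db and 12.1 CPM in HFD. MHC-II macrophages (antigen presentation genes) had 191, 34.7, 2.18 and 8.49 CPM in the same order. Il1b/Ccl4 values rested on 8 UMIs in 16-week db/db and 9 in HFD, and the MHC-II value of 16-week db/db on 4. The immediate-early and heat-shock list was highest in WT inside these subsets too. It summed to 18136, 8996, 7643 and 4874 CPM in Il1b/Ccl4 macrophages and to 28737, 13570, 6118 and 5887 CPM in MHC-II macrophages. In Lyve1/Folr2 macrophages of WT it was 29151 CPM. Its part in these ratios was not tested.

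**Figure D1:**
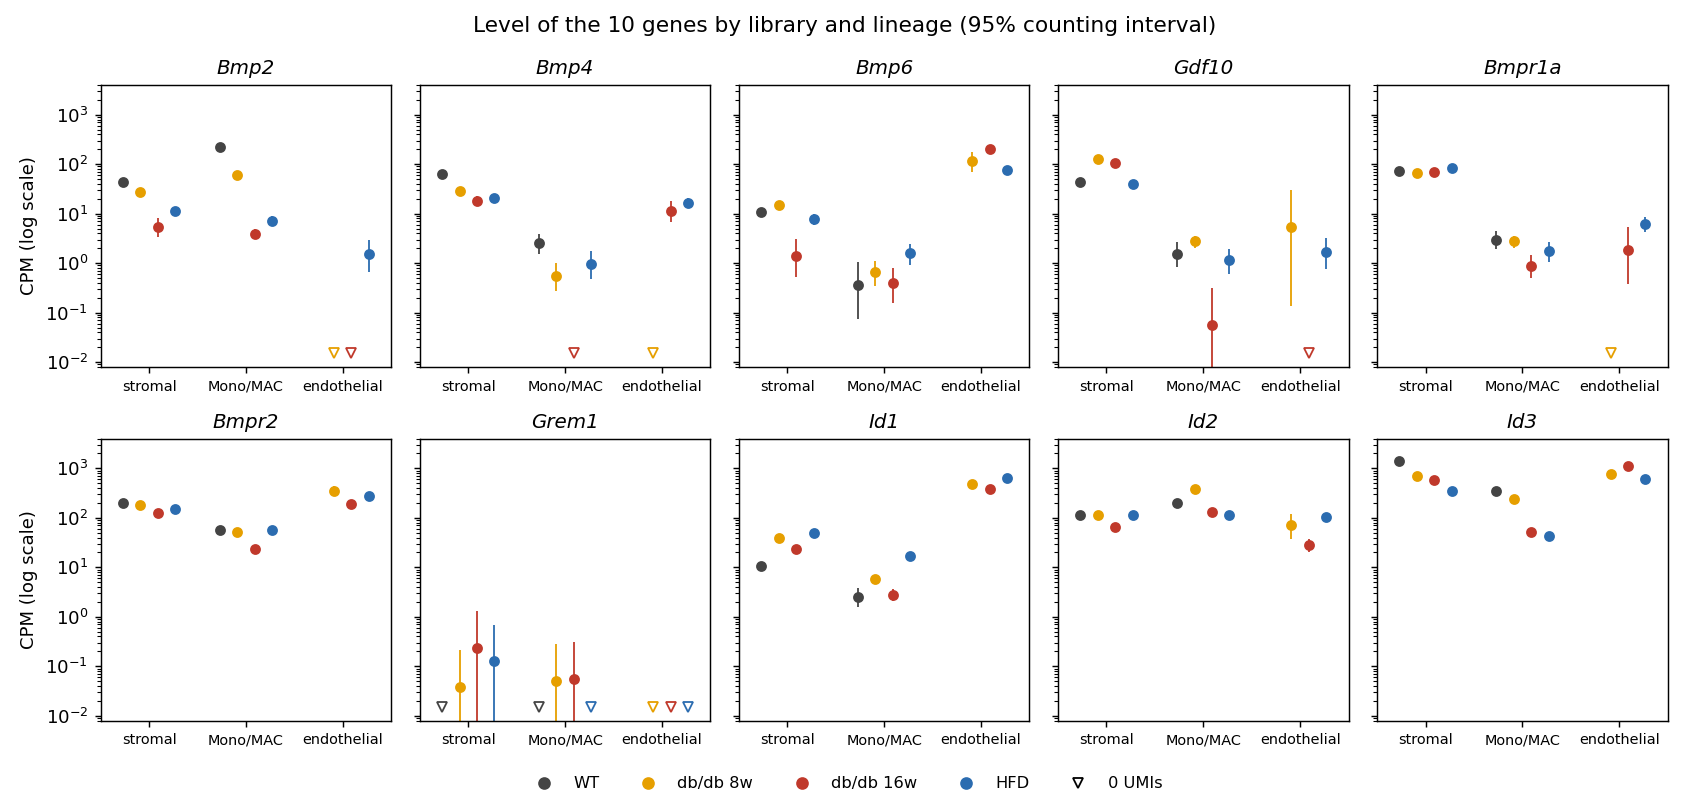
Level of each of the 10 genes in stromal, Mono/MAC and endothelial cells of the 4 libraries, in CPM on a log axis. Points are lineage sums, bars 95% counting intervals and open triangles lineages with 0 UMIs; Bmp2 is highest in WT Mono/MAC cells at 220 CPM, Id1 and Bmp6 in endothelial cells, and Bmp4, Gdf10 and Bmpr1a in stromal cells.

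Bmp4 (ENSMUSG00000021835, protein-coding, minus strand of chromosome 14, 46383520 to 46390669) is a ligand linked to commitment of fat precursors. Stromal cells held 95.8%, 91.2% and 73.3% of its UMIs in WT, 8-week db/db and 16-week db/db, and 49.4% in HFD. Stromal cells stood at 63.0 CPM in WT (60.3 to 65.7), 29.2 CPM in 8-week db/db (27.1 to 31.3), 18.1 CPM in 16-week db/db (14.3 to 22.7) and 20.9 CPM in HFD (17.9 to 24.4). All 3 obese libraries were below WT, and 16-week db/db and HFD overlapped. The level was 2.16-fold, 3.47-fold and 3.01-fold lower than WT, or -1.11 (-1.23 to -0.99), -1.80 (-2.14 to -1.47) and -1.59 (-1.82 to -1.36) on the log2 scale. The same direction was seen in Col15a1/Col4a1 stromal cells, a subset with genes of committed preadipocytes, at 43.4 CPM in WT against 13.3, 16.1 and 14.99 CPM in 8-week db/db, 16-week db/db and HFD. In Pi16/Dpp4 stromal cells, a subset with genes of early progenitors, Bmp4 was at 66.2 CPM in WT, 45.9 CPM in 8-week db/db and 64.2 CPM in HFD (47.0 to 85.7), so that the HFD value of this subset was not below WT beyond counting error. Endothelial cells held Bmp4 at 11.5 CPM in 16-week db/db and 16.6 CPM in HFD. The log2 ratios of endothelial to stromal cells were -0.66 (-1.47 to 0.08) and -0.34 (-0.73 to 0.05). Neither level was apart from the stromal one beyond counting error. Mono/MAC cells had 0 to 2.51 CPM, or 0% to 4.60% of the stromal level. There 6 stromal genes such as Col1a1 and Dcn were found at 2.04% to 4.13% of their stromal level in WT and 1.35% to 3.02% in 8-week db/db. They were at 0.0660% to 1.73% in 16-week db/db and 0.872% to 2.79% in HFD. Bmp4 lay within or below the range of its own library except in HFD, where 4.60% (11 UMIs) was above it.

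Bmp6 (ENSMUSG00000039004, protein-coding, plus strand of chromosome 13, 38345107 to 38500302), known from liver endothelium as the ligand that sets iron uptake, was highest in endothelial cells. These stood at 114 CPM in 8-week db/db (70.5 to 174), 206 CPM in 16-week db/db (184 to 229) and 76.5 CPM in HFD (69.3 to 84.3). The 16-week db/db level was 2.69-fold the HFD level, with a log2 ratio of 1.43 (1.21 to 1.64), while the 8-week db/db interval, from 83 cells, overlapped that of HFD. After thinning, 119 of 661 endothelial cells in 16-week db/db and 90 of 1091 in HFD (8.25%) held a Bmp6 UMI, against 0.129% and 0.130% of Mono/MAC cells. Without thinning these shares were 22.8% and 28.2% against 0.292% and 1.17%, the endothelial median depths being 1013.5 UMIs in 16-week db/db and 4348 in HFD.

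Stromal Bmp6 stood at 11.1 CPM in WT, 14.96 CPM in 8-week db/db, 1.41 CPM in 16-week db/db and 7.77 CPM in HFD, so 16-week db/db was 7.84-fold lower than WT, with a log2 ratio of -2.97 (-4.43 to -1.84). The 16-week db/db value rested on 6 UMIs. In these stromal cells Bmp6 stood at 0.687% of its endothelial level and the capillary gene Gpihbp1 at 0.597%. The part of free endothelial RNA in that value was not tested. The subsets gave another picture. Most stromal Bmp6 lay in Pi16/Dpp4 cells, with 348 of 377 UMIs in WT, 339 of 395 in 8-week db/db and 37 of 62 in HFD. Its level in these cells was 15.2 CPM in WT (13.6 to 16.8), 45.6 CPM in 8-week db/db (40.9 to 50.7) and 51.7 CPM in HFD (36.4 to 71.2). Col15a1/Col4a1 cells had 1.33, 1.56 and 3.41 CPM in those libraries and 1.04 CPM in 16-week db/db. Within Pi16/Dpp4 cells Bmp6 was therefore higher than WT in both 8-week db/db, with a log2 ratio of 1.59 (1.37 to 1.81), and HFD, with 1.77 (1.24 to 2.26). These cells were 69.5% of stromal cells in WT, 28.5% in 8-week db/db, 2.05% in 16-week db/db and 10.9% in HFD. Stromal Bmp6 as a whole was lowest in 16-week db/db, the library where these cells were fewest.

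Gdf10 (ENSMUSG00000021943, protein-coding, plus strand of chromosome 14, 33923587 to 33937983), a BMP family ligand also called BMP3B, was a stromal transcript. It stood there at 44.7 CPM in WT (42.5 to 47.0), 127 CPM in 8-week db/db (123 to 132), 108 CPM in 16-week db/db (98.1 to 118) and 39.6 CPM in HFD (35.4 to 44.2). The 2 db/db libraries were 2.85-fold and 2.41-fold above WT, and HFD was not, with log2 ratios of 1.51 (1.42 to 1.60), 1.27 (1.12 to 1.42) and -0.17 (-0.35 to 0.00). Mono/MAC cells held 0.0561 to 2.75 CPM, 0.0521% to 3.48% of the stromal level. This was within or below the range of the 6 stromal genes of the same library, except in HFD, at 2.88% against up to 2.79%.

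Gdf10 was highest in F3/Fmo2 stromal cells, a minor subset of 56 to 103 cells in the libraries that reached 50, at 458 CPM in WT (413 to 507), 701 CPM in 8-week db/db (629 to 779) and 706 CPM in 16-week db/db (558 to 881). Cilp/Eln cells (elastic matrix genes) came next, at 168 CPM in WT and 203 CPM in 8-week db/db. Has1/Ptx3 cells (genes of activated fibroblasts) had 30.9 CPM in WT and 96.5 CPM in 8-week db/db, a log2 ratio of 1.64 (1.29 to 1.99). In the other subsets compared, the log2 ratio of 8-week db/db to WT was 0.27 to 0.78, under 2-fold. Pi16/Dpp4 cells had 17.7, 28.8 and 4.19 CPM in WT, 8-week db/db and HFD. In Col15a1/Col4a1 cells the level was 85.4 CPM in WT (77.1 to 94.4), 147 CPM in 8-week db/db (140 to 153), 85.0 CPM in 16-week db/db (76.0 to 94.7) and 33.4 CPM in HFD (29.2 to 38.1). Inside that subset the log2 ratio to WT was 0.78 in 8-week db/db (0.62 to 0.94), -0.01 in 16-week db/db (-0.22 to 0.21) and -1.36 in HFD (-1.60 to -1.11). The stromal difference of 16-week db/db was thus not present within its largest subset, which made up 83.7% of stromal cells there and 12.97% in WT, and HFD was lower than WT once this subset was compared alone.

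The antagonist Grem1 (ENSMUSG00000074934, protein-coding, minus strand of chromosome 2, 113746164 to 113758646), which binds BMP2 and BMP4 outside the cell, was not detectable at this depth. It had 0 UMIs in WT, 2 in 8-week db/db, 3 in 16-week db/db and 4 in HFD over all kept cells. In WT a count of 0 allows up to 0.0666 CPM over all cells.

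In stromal cells neither receptor differed from WT by 2-fold in any library. Bmpr1a (ENSMUSG00000021796, protein-coding, minus strand of chromosome 14, 34410734 to 34503341), a type 1 receptor for BMP2 and BMP4, was stromal, at 73.7 CPM in WT, 66.6 CPM in 8-week db/db, 70.6 CPM in 16-week db/db and 83.9 CPM in HFD. The log2 ratios to WT were -0.14 (-0.23 to -0.06), -0.06 (-0.24 to 0.11) and 0.19 (0.06 to 0.31), so any difference was well within 2-fold. Mono/MAC cells held 0.898 to 2.99 CPM and endothelial cells 0 to 6.22 CPM. In Mono/MAC cells this was 1.27% to 4.12% of the stromal level. It was within the range of the 6 stromal genes of the same library except in 8-week db/db, at 4.12% against up to 3.02%.

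Bmpr2 (ENSMUSG00000067336, protein-coding, plus strand of chromosome 1, 59763400 to 59879014), the type 2 receptor whose mutation is linked to pulmonary arterial hypertension, was present in all 3 lineages. Stromal cells had 203 CPM in WT, 181 CPM in 8-week db/db, 126 CPM in 16-week db/db and 149 CPM in HFD, which gave log2 ratios of -0.17, -0.69 and -0.45. Endothelial cells had 352 CPM in 8-week db/db (272 to 449), 187 CPM in 16-week db/db (167 to 209) and 277 CPM in HFD (263 to 292). Mono/MAC cells had 55.5 CPM in WT (50.5 to 60.8), 51.0 CPM in 8-week db/db (47.9 to 54.2), 23.6 CPM in 16-week db/db (21.4 to 26.0) and 55.6 CPM in HFD (51.3 to 60.1). Only 16-week db/db stood apart in Mono/MAC cells, 2.35-fold below WT with a log2 ratio of -1.23 (-1.42 to -1.04). The subsets differed there as well, from 17.9 CPM in Trem2/Gpnmb macrophages (15.7 to 20.4) to 56.1 CPM in Lyve1/Folr2 macrophages (43.8 to 70.8), where the log2 ratio to WT was -0.17 (-0.60 to 0.25). In MHC-II and Il1b/Ccl4 macrophages of 16-week db/db Bmpr2 was below WT by less than 2-fold, with -0.81 (-1.28 to -0.36) and -0.77 (-1.46 to -0.14).

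**Figure D2:**
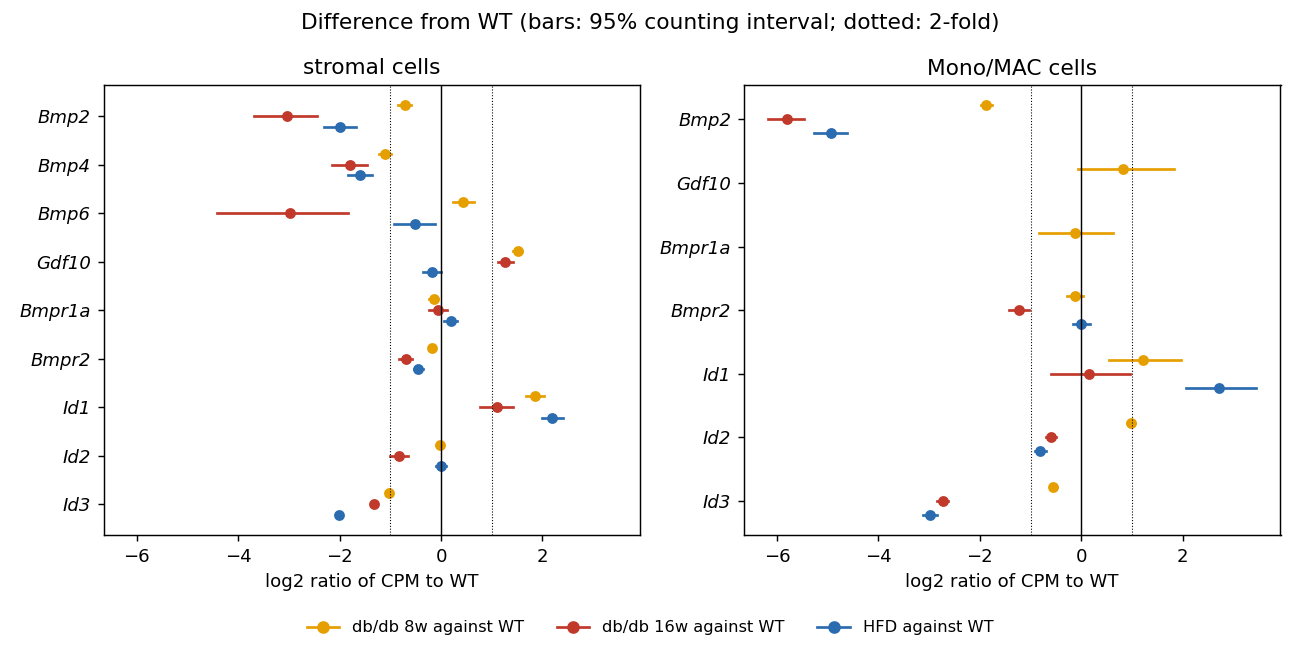
Log2 ratio of CPM to WT for each member with at least 50 UMIs in the pair of libraries, in stromal (left) and Mono/MAC cells (right). Points are single libraries, bars 95% counting intervals and dotted lines 2-fold; Bmp2 reaches -5.81 in 16-week db/db Mono/MAC cells, stromal Id1 lies above 1 in all 3 comparisons, and Bmpr1a stays near 0.

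The 3 Id genes differed in where they were found. Id1 (ENSMUSG00000042745, protein-coding, plus strand of chromosome 2, 152736251 to 152737410), a direct target of BMP signals well known in endothelium, was highest in endothelial cells, at 483 CPM in 8-week db/db (388 to 594), 380 CPM in 16-week db/db (351 to 411) and 625 CPM in HFD (604 to 647). This was 12.5-fold, 16.5-fold and 12.7-fold the stromal level of the same library. After thinning, 32.4%, 27.1% and 42.1% of endothelial cells held an Id1 UMI, against 0.786%, 0.344% and 1.69% of Mono/MAC cells. Unthinned, the shares were 53.0%, 30.6% and 82.9% against 2.39%, 1.502% and 10.2%. HFD was above 16-week db/db in both measures, with a log2 ratio of 16-week db/db to HFD of -0.72 (-0.84 to -0.59).

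Stromal Id1 stood at 10.7 CPM in WT (9.68 to 11.9), 38.8 CPM in 8-week db/db (36.4 to 41.2), 23.1 CPM in 16-week db/db (18.7 to 28.1) and 49.3 CPM in HFD (44.5 to 54.4). WT was lowest and no interval overlapped that of WT. The level was 3.60-fold, 2.15-fold and 4.58-fold higher, with log2 ratios of 1.85 (1.68 to 2.03), 1.10 (0.76 to 1.43) and 2.20 (1.99 to 2.41). In Col15a1/Col4a1 cells alone, the ratios were 2.42 (1.95 to 2.92), 1.38 (0.82 to 1.96) and 2.55 (2.07 to 3.07), from 8.67 CPM in WT to 46.4, 22.5 and 50.9 CPM. Pi16/Dpp4 cells had 10.1 CPM in WT, 19.9 CPM in 8-week db/db and 23.7 CPM in HFD. Cilp/Eln cells had 6.25 CPM in WT and 48.3 CPM in 8-week db/db.

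The endothelial gate genes were also lowest in stromal cells of WT and highest in those of HFD. The sum of the 6 endothelial gate genes in stromal cells was 3.79 CPM in WT, 13.5 CPM in 8-week db/db, 33.9 CPM in 16-week db/db and 128 CPM in HFD, all 6 genes being seen in each library. The db/db libraries stood in the opposite order for Id1. The capillary gene Gpihbp1 stood in stromal cells at 0.129%, 0.597% and 2.36% of its endothelial level in 8-week db/db, 16-week db/db and HFD, while Id1 stood at 8.03%, 6.07% and 7.88%. Id1 carried over at the share of Gpihbp1 would come to 0.625, 2.27 and 14.7 CPM. Over all 6 endothelial genes compared, which include Cav1 and Ly6c1, genes that fibroblasts are known to express as well, the median share was 6.42%, 9.15% and 7.40% and the highest 33.1%, 16.3% and 28.7%. The stromal sum of these 6 genes was 1118, 2772, 10016 and 5039 CPM in WT, 8-week db/db, 16-week db/db and HFD. Unlike the gate genes, it was highest in 16-week db/db. How much of the stromal Id1 was free endothelial RNA cannot be told apart from these values.

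Id1 of Mono/MAC cells was at 2.51, 5.85, 2.81 and 16.6 CPM in WT, 8-week db/db, 16-week db/db and HFD. In HFD this was 2.65% of the endothelial level and lay within the 1.77% to 5.51% of the 6 endothelial genes. In 8-week db/db and 16-week db/db it was 1.21% and 0.738%, within 0.240% to 6.32% and 0.222% to 1.83%. The share of Gpihbp1 would give 1.16, 1.37 and 11.1 CPM in 8-week db/db, 16-week db/db and HFD, below the measured levels. As in stromal cells, the part of free RNA cannot be told apart.

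Id2 (ENSMUSG00000020644, protein-coding, minus strand of chromosome 12, 25093799 to 25097140), known for its part in the development of innate lymphoid and dendritic cells, was found in every lineage. Among the smaller lineages it was at 461 CPM in dendritic cells of HFD (388 to 545, 57 cells) and at 364 CPM in T and NK cells of 8-week db/db (296 to 443, 82 cells). Mono/MAC cells had 195 CPM in WT (186 to 205), 386 CPM in 8-week db/db (377 to 395), 129 CPM in 16-week db/db (124 to 134) and 111 CPM in HFD (105 to 118). The 8-week db/db level was above WT by a log2 ratio of 0.99 (0.91 to 1.06), just under 2-fold, and the others were below WT by -0.60 (-0.69 to -0.51) and -0.81 (-0.91 to -0.70). Within Lyve1/Folr2 macrophages, both db/db libraries were above WT: 35.8 CPM in WT (28.7 to 44.1), 125 CPM in 8-week db/db (112 to 140) and 109 CPM in 16-week db/db (91.6 to 129). The log2 ratios were 1.81 (1.46 to 2.16) and 1.61 (1.21 to 2.01). In MHC-II macrophages 16-week db/db did not differ from WT beyond counting error (238 and 232 CPM). There 8-week db/db was at 0.85 (0.72 to 0.99) against WT and HFD at -0.87 (-1.02 to -0.73). In Il1b/Ccl4 macrophages the log2 ratios were 0.56 (0.46 to 0.67) in 8-week db/db, -0.06 (-0.28 to 0.15) in 16-week db/db and -1.85 (-2.24 to -1.47) in HFD. Trem2/Gpnmb macrophages had Id2 at 203, 96.7 and 79.8 CPM in 8-week db/db, 16-week db/db and HFD. In stromal cells it stood at 116, 114, 65.4 and 116 CPM in WT, 8-week db/db, 16-week db/db and HFD. In endothelial cells 16-week db/db was 3.68-fold below HFD, at 27.8 CPM against 102 CPM, with a log2 ratio of -1.88 (-2.35 to -1.44).

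Id3 (ENSMUSG00000007872, protein-coding, plus strand of chromosome 4, 136143497 to 136145755), which restrains E proteins in lymphocytes and is induced by BMP and by growth factors, had its highest stromal level in WT. Stromal cells stood at 1424 CPM in WT (1411 to 1437), 699 CPM in 8-week db/db (689 to 709), 571 CPM in 16-week db/db (549 to 594) and 355 CPM in HFD (342 to 368). The order was WT, 8-week db/db, 16-week db/db and HFD, with no overlap of intervals. The level was 2.04-fold, 2.49-fold and 4.01-fold below WT, with log2 ratios of -1.03 (-1.05 to -1.002), -1.32 (-1.38 to -1.26) and -2.01 (-2.06 to -1.95). Mono/MAC cells gave 345 CPM in WT (333 to 358), 235 CPM in 8-week db/db (229 to 242), 52.0 CPM in 16-week db/db (48.7 to 55.4) and 43.9 CPM in HFD (40.2 to 47.9). There the log2 ratios were -0.55, -2.73 and -2.98. Endothelial cells were at 759, 1095 and 602 CPM in 8-week db/db, 16-week db/db and HFD, with 16-week db/db above HFD by 0.86 (0.78 to 0.95).

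Stromal Id3 differed widely between subsets. Has1/Ptx3 cells (genes of activated fibroblasts) were at 3971 CPM in WT (3911 to 4032) and 2186 CPM in 8-week db/db (2115 to 2259). Pi16/Dpp4 cells were at 1163 CPM in WT, 450 CPM in 8-week db/db and 186 CPM in HFD, with log2 ratios to WT of -1.37 (-1.42 to -1.32) and -2.65 (-2.90 to -2.40). In Col15a1/Col4a1 cells, however, Id3 was at 617 CPM in WT (594 to 640), 613 CPM in 8-week db/db (600 to 626), 564 CPM in 16-week db/db (540 to 588) and 357 CPM in HFD (343 to 371). In this subset the log2 ratios were -0.01 (-0.07 to 0.05), -0.13 (-0.21 to -0.05) and -0.79 (-0.87 to -0.71), so none reached 2-fold. In Mono/MAC cells Id3 was below WT in each subset compared, with log2 ratios from -0.66 in Lyve1/Folr2 macrophages of 8-week db/db to -3.39 in Il1b/Ccl4 macrophages of HFD.

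**Figure D3:**
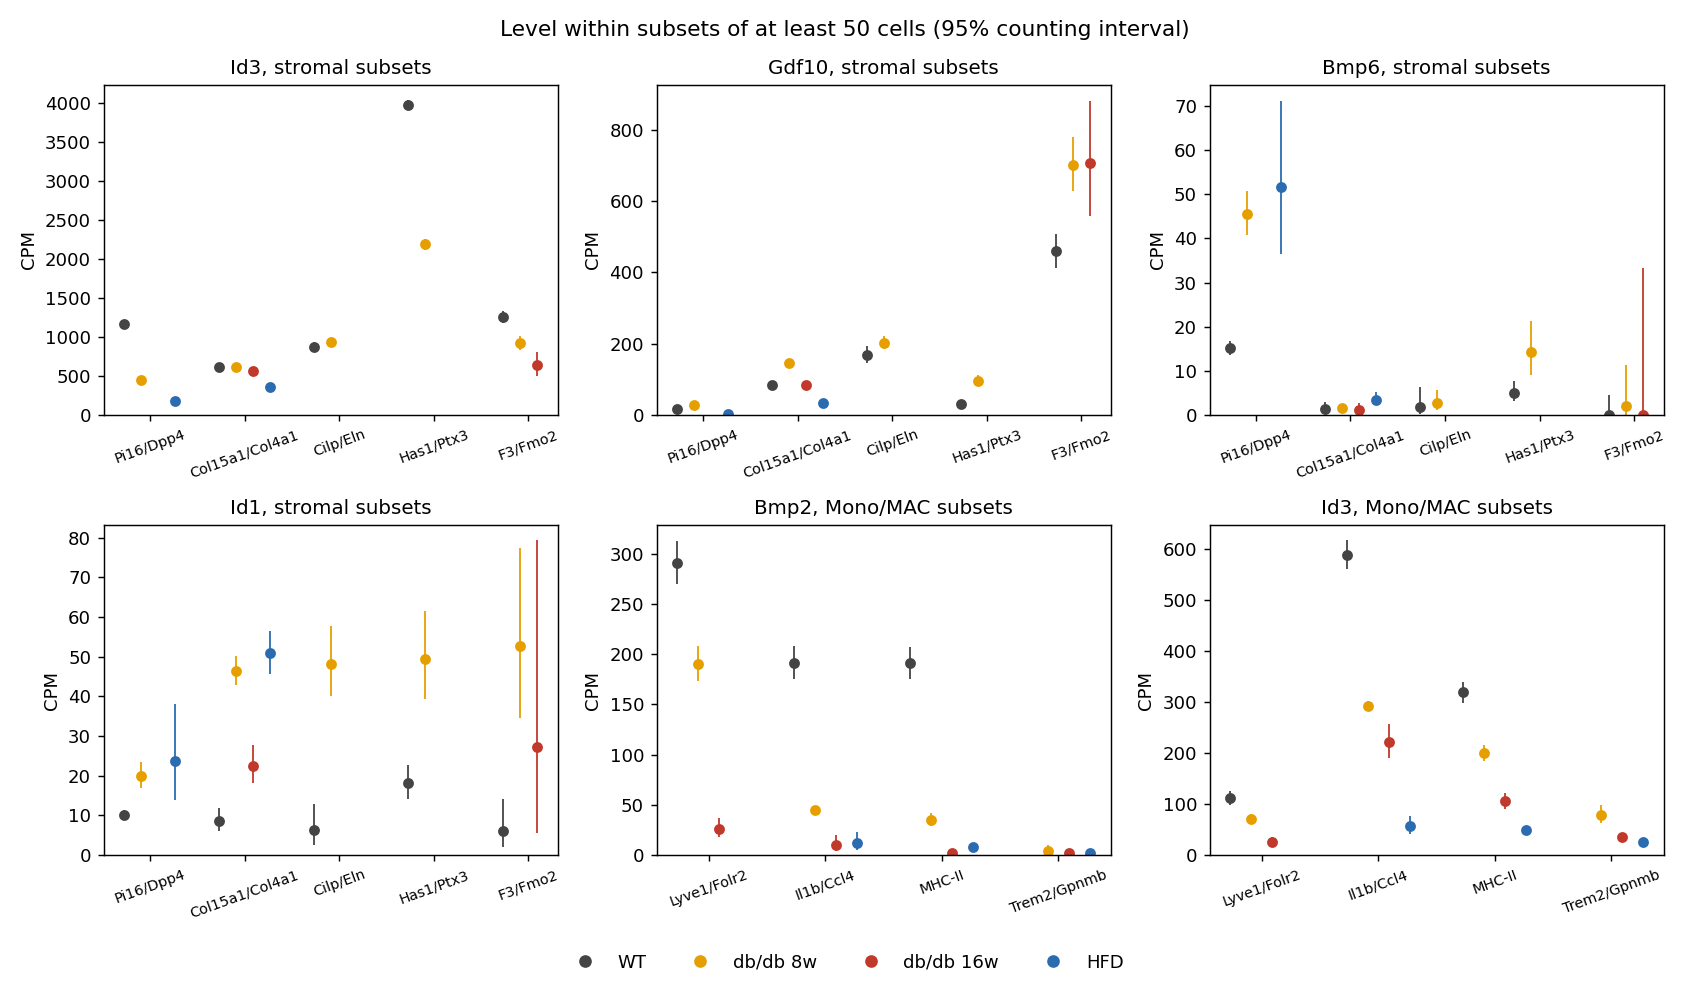
Level in CPM of Id3, Gdf10, Bmp6 and Id1 in stromal subsets, and of Bmp2 and Id3 in Mono/MAC subsets, for subsets of at least 50 cells. Points are subset sums and bars 95% counting intervals; Bmp6 lies in Pi16/Dpp4 cells and is higher there in 8-week db/db (45.6 CPM) and HFD (51.7 CPM) than in WT (15.2 CPM), while Id3 of Col15a1/Col4a1 cells is at 617 CPM in WT and 613 CPM in 8-week db/db.

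A second measure moved with several members. Immediate-early and heat-shock genes, which respond within minutes to stress and to tissue digestion, were summed over a list of 11 genes (Fos, Fosb, Jun, Junb, Egr1, Atf3, Ier2, Ier3, Hspa1a, Hspa1b and Dnajb1). The Mono/MAC sum was 25392 CPM in WT, 11611 CPM in 8-week db/db, 3693 CPM in 16-week db/db and 5139 CPM in HFD, the order of Bmp2. In stromal cells it was 16953, 12583, 5566 and 11888 CPM. Cells were therefore parted at 1% of their UMIs from this list, a division chosen after the data were seen. Stromal cells under 1% had Id3 at 340 CPM in WT (1937 cells), 341 CPM in 8-week db/db (3464 cells), 388 CPM in 16-week db/db (909 cells) and 294 CPM in HFD (602 cells). Stromal cells at or over 1% had 2087, 1163, 1207 and 400 CPM. Among the cells under 1% the log2 ratios of Id3 to WT were 0.00 (-0.05 to 0.06), 0.19 (0.10 to 0.28) and -0.21 (-0.31 to -0.11). Among these cells stromal Id3 was thus not below WT in either db/db library, and in HFD it was below WT by far less than over all stromal cells. The division did not match the list itself, whose sum in stromal cells under 1% was 3209, 3266, 1598 and 5945 CPM in WT, 8-week db/db, 16-week db/db and HFD.

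Stromal Bmp4, Id1 and Bmp2 kept their direction against WT in those cells, as did Gdf10. Bmp4 was at 65.2 CPM in WT against 29.4, 19.4 and 23.0 CPM in 8-week db/db, 16-week db/db and HFD, with log2 ratios of -1.15 (-1.32 to -0.98), -1.75 (-2.14 to -1.38) and -1.50 (-1.86 to -1.17). Id1 was at 3.41 CPM in WT against 25.3, 22.1 and 50.1 CPM, with 2.89, 2.70 and 3.88. Gdf10 gave 1.23, 1.14 and -0.10. Stromal Bmp2 was at 20.6 CPM in WT and 16.0, 5.16 and 12.4 CPM in the others, with -0.36, -2.00 and -0.73, and so came within 2-fold of WT in HFD as well as in 8-week db/db. Stromal Id2 of these cells was above WT in 8-week db/db, by 0.33 (0.22 to 0.45), and in HFD, by 0.51 (0.34 to 0.68), where it was level with WT over all stromal cells.

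Among Mono/MAC cells under 1%, of which WT had 195, Bmp2 was at 59.8 CPM in WT (48.6 to 72.9), 16.6 CPM in 8-week db/db, 2.79 CPM in 16-week db/db and 6.04 CPM in HFD. The log2 ratios were -1.85 (-2.20 to -1.49), -4.42 (-4.96 to -3.90) and -3.31 (-3.79 to -2.84), so Bmp2 stayed below WT by over 2-fold in all 3. The list was not matched here either, its sum in these cells being 6274 CPM in WT and 5072, 2698 and 4337 CPM in the others. Id3 of these cells was at 345 CPM in WT and 205, 45.3 and 39.1 CPM in 8-week db/db, 16-week db/db and HFD. Id2 was at 371, 410, 110 and 110 CPM, which placed 8-week db/db at 0.14 (0.02 to 0.27) against WT. Within WT, Bmp2 was higher in the Mono/MAC cells at or over 1%, at 259 CPM, and Id2 was lower there, at 152 CPM. The part of tissue digestion in these differences was not tested.

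**Figure D4:**
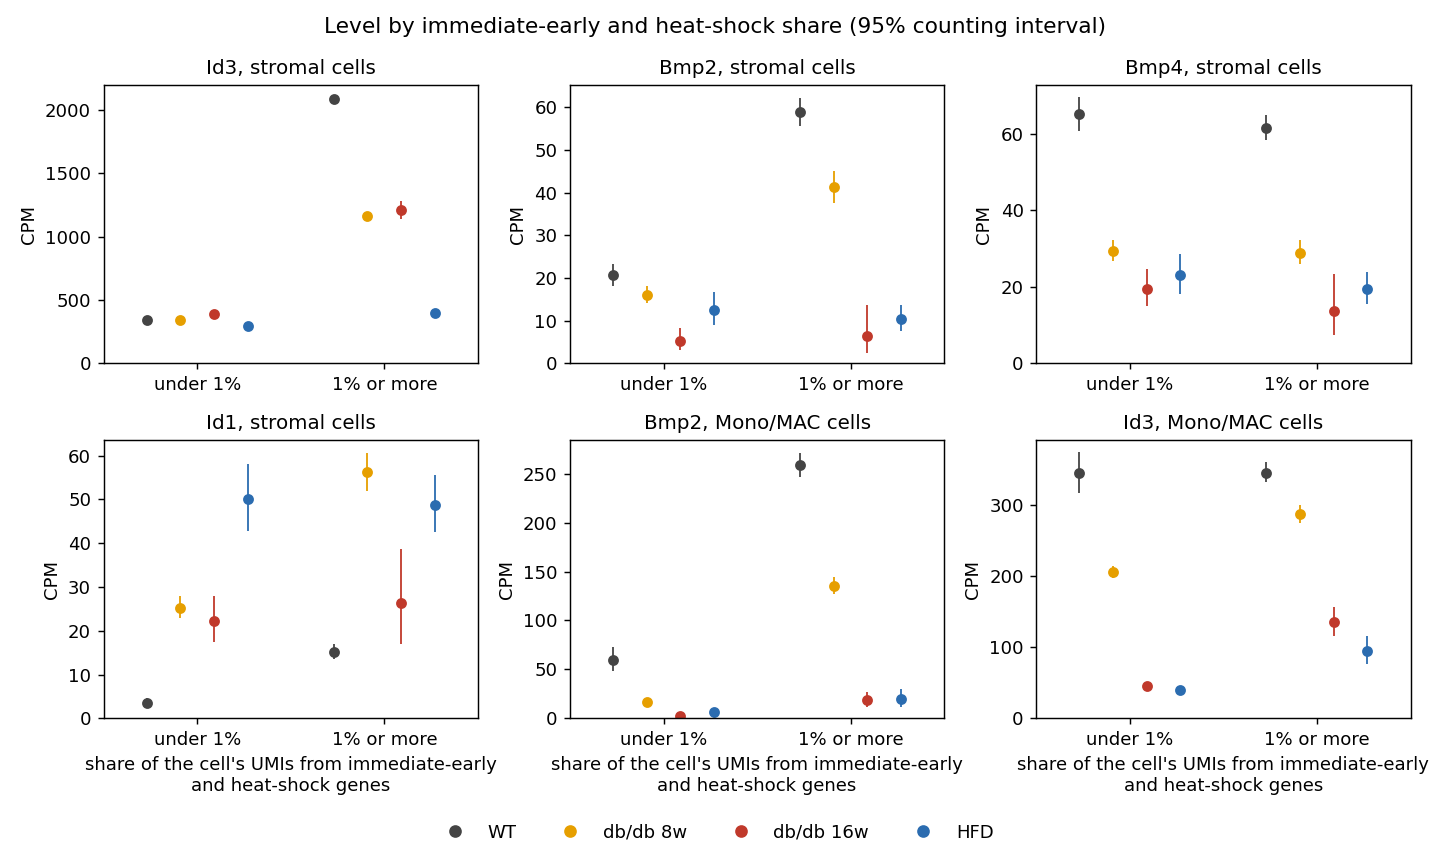
Level in CPM of Id3, Bmp2, Bmp4 and Id1 in stromal cells and of Bmp2 and Id3 in Mono/MAC cells, split by the share of a cell's UMIs from 11 immediate-early and heat-shock genes. Points are sums over cells and bars 95% counting intervals; stromal Id3 lies between 294 and 388 CPM in all 4 libraries under 1%, but between 400 and 2087 CPM at or above it.

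A member was counted as different between libraries when its level differed by at least 2-fold, over members with at least 50 UMIs in both libraries together. In stromal cells 9 of the 10 members passed this minimum in each comparison, Grem1 being the exception. In 8-week db/db against WT 2 were higher (Gdf10 and Id1) and 2 lower (Bmp4 and Id3), where 7.26% of all 13027 genes tested were higher and 3.54% lower. In 16-week db/db against WT 2 were higher (Gdf10 and Id1) and 4 lower (Bmp2, Bmp4, Bmp6 and Id3), against 12.6% higher and 18.4% lower of all genes. In HFD against WT 1 was higher (Id1) and 3 were lower (Bmp2, Bmp4 and Id3), against 12.3% and 8.41%. In 16-week db/db against 8-week db/db none was higher and 2 were lower (Bmp2 and Bmp6), against 6.24% and 14%. The median log2 ratio of the 9 members was -0.14, -0.82, -0.45 and -0.69 in these comparisons, and that of all genes 0.02, -0.09, 0.06 and -0.09.

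In Mono/MAC cells 7 members passed the minimum in 8-week db/db against WT, of which 1 was higher (Id1) and 1 lower (Bmp2), against 6.68% and 7.03% of all genes. In 16-week db/db against WT 5 passed and 3 were lower (Bmp2, Bmpr2 and Id3), against 19.8% of all genes higher and 25.3% lower. In HFD against WT 5 passed, with 1 higher (Id1) and 2 lower (Bmp2 and Id3), against 15.2% and 11.3%. The Id1 levels of 8-week db/db and HFD lay within the range of the 6 endothelial genes given above and over the share of Gpihbp1. How much of them was free RNA cannot be told apart. In 16-week db/db against 8-week db/db 7 passed and all of these 7 were lower, against 9.94% higher and 19.6% lower of all genes. These 7 included Gdf10 and Bmpr1a, with 1 and 16 UMIs in 16-week db/db. Both passed the minimum only through their 54 UMIs each in 8-week db/db, so the minimum favoured a lower call for them. In 8-week db/db Gdf10 lay within the range of the 6 stromal genes compared above. Bmpr1a, at 4.12% of its stromal level, lay above their highest share of 3.02%. The Gdf10 ratio of -5.61 (-10.94 to -3.07) rested on 1 UMI in 16-week db/db, and 6 stromal genes had a median of 1.54% of their stromal level in Mono/MAC cells of 8-week db/db but 0.101% in 16-week db/db. The median log2 ratio of all genes was -0.14 in 16-week db/db and 0.15 in HFD against WT, and -0.13 in 16-week db/db against 8-week db/db. Relative to it Bmp2 was at -5.66, -5.09 and -3.80, and Bmpr2 of 16-week db/db at -0.98 against 8-week db/db.

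In endothelial cells of 16-week db/db and HFD 6 members passed, with 1 higher in 16-week db/db (Bmp6) and 1 lower (Id2), against 5.65% and 23% of all genes. The median of all genes was -0.34 there, and relative to it Bmp6 was at 1.76, Id3 at 1.20 and Id2 at -1.54. Median depth was 1013.5 UMIs in 16-week db/db and 4348 UMIs in HFD, a list of 6 adipocyte genes summed to 6.65 and 337 CPM, and 5 RNAs that stay in the nucleus summed to 7630 and 24977 CPM. Their part in these ratios was not tested.

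**Figure D5:**
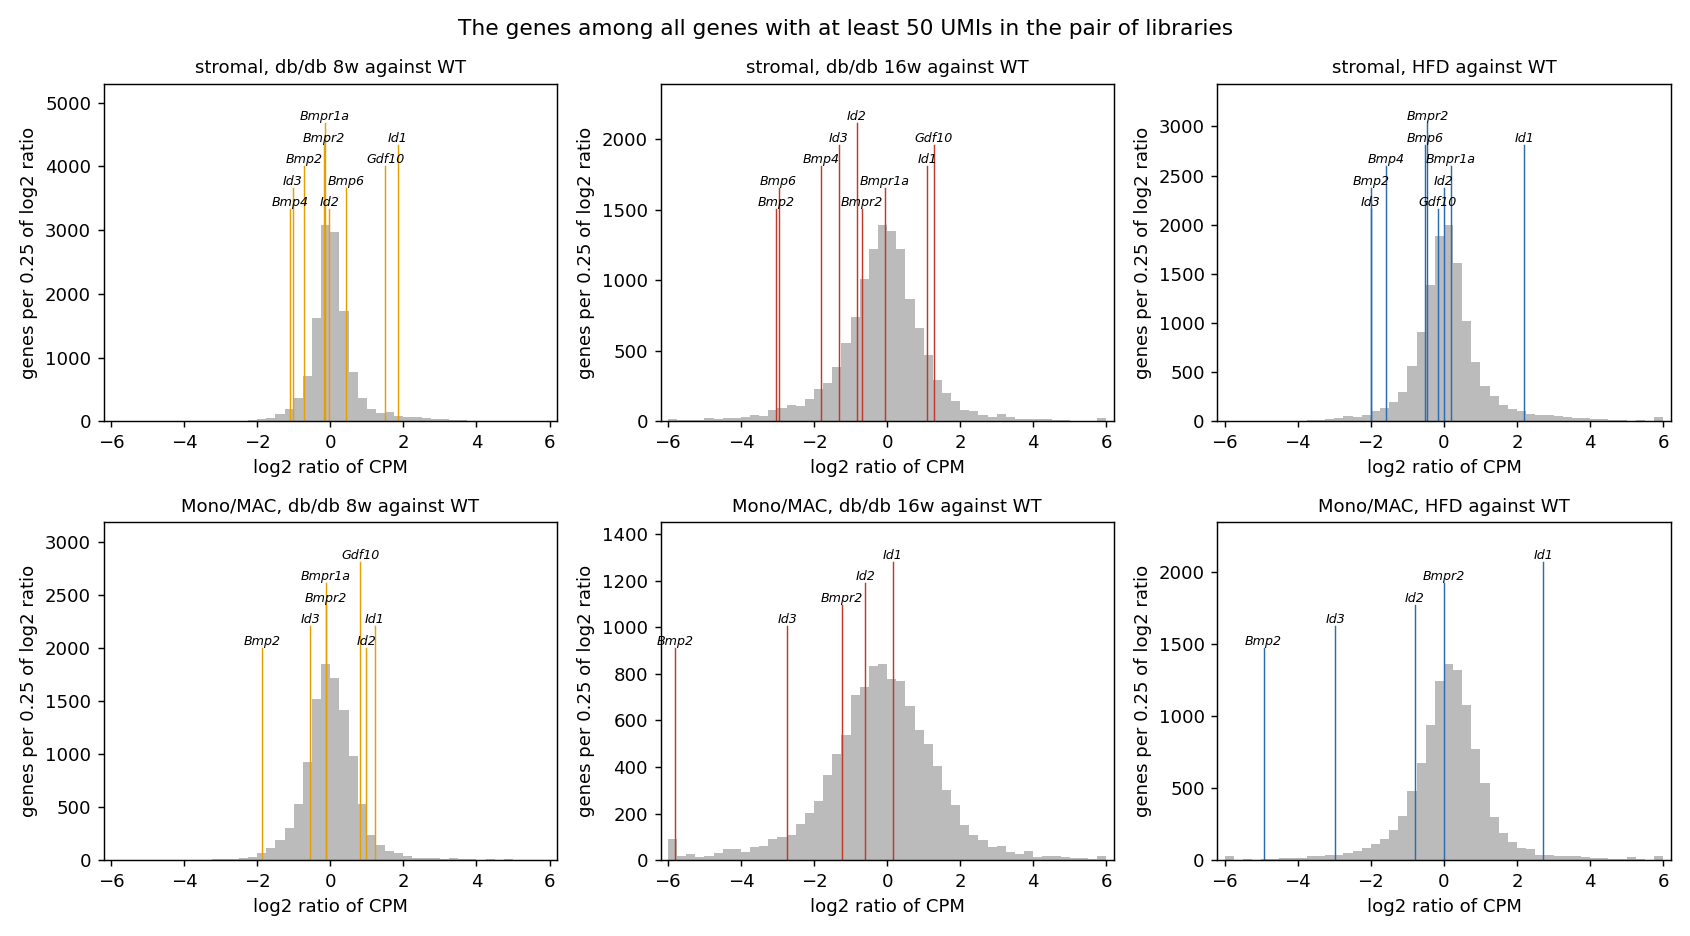
Log2 ratios of CPM to WT of all genes with at least 50 UMIs in the pair (grey, genes per bin, the outermost bins holding genes beyond them), with the members that passed the same minimum as lines. Stromal Id1 lies above 1 and Bmp4 below -1 in all 3 stromal comparisons, and Bmp2 lies at or below percentile 1.13 of all genes in Mono/MAC cells.

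Another 48 genes of the pathway were measured from a list by role, of which 34 passed the minimum in stromal cells. Of these, 4 were higher and 1 lower in 8-week db/db, 4 higher and 12 lower in 16-week db/db, and 4 higher and 8 lower in HFD, each against WT. The shares of all genes given above were 7.26% and 3.54%, 12.6% and 18.4%, and 12.3% and 8.41%. Secreted antagonists held some of the widest differences among the genes named. The stromal values below are of the whole lineage, whose makeup of subsets differed between libraries as given above. The part of makeup in them was not tested. Chrdl1, which binds BMP4 and blocks it, stood in stromal cells at 249 CPM in WT, 81.9 CPM in 8-week db/db, 11.5 CPM in 16-week db/db and 25.8 CPM in HFD. Its log2 ratios to WT were -1.60 (-1.67 to -1.53), -4.43 (-4.87 to -4.03) and -3.27 (-3.47 to -3.07). Bmper, a BMP-binding regulator first known from endothelium, went the other way, at 30.8, 66.8, 117 and 130 CPM, with 1.12 (1.01 to 1.23), 1.92 (1.76 to 2.07) and 2.07 (1.95 to 2.20). Twsg1, which binds BMPs together with chordin, was at 186, 109, 79.1 and 78.1 CPM. Rgmb, a co-receptor, was at 73.1, 42.2, 33.9 and 40.4 CPM. Fstl1 was the antagonist with the highest stromal level, at 1537, 2112, 1474 and 1635 CPM.

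Of the other ligands, Bmp3 had the highest stromal level, at 77.3 CPM in WT, 67.4 CPM in 8-week db/db, 0.706 CPM in 16-week db/db (3 UMIs) and 26.3 CPM in HFD. The log2 ratio of 16-week db/db to WT was -6.77 (-9.05 to -5.23). The activin and BMP type 2 receptor Acvr2a was at 42.1, 67.4, 81.2 and 108 CPM, with log2 ratios of 0.68, 0.95 and 1.36. Smurf2, which marks receptors and SMADs for destruction, was at 141, 91.7, 34.4 and 80.2 CPM. The target Msx1 was between 31.1 and 37.5 CPM.

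In Mono/MAC cells 19, 18 and 18 of the 48 genes passed in 8-week db/db, 16-week db/db and HFD against WT. Of these 0, 0 and 1 were higher, against 6.68%, 19.8% and 15.2% of all genes. Lower were 2, 7 and 5, against 7.03%, 25.3% and 11.3% of all genes. Secreted antagonists, of which 5 passed in each comparison, were 1 of the 2, 4 of the 7 and 4 of the 5 lower genes. Acvrl1, a type 1 receptor better known from endothelium, was at 17.2, 27.7, 14.3 and 49.3 CPM in WT, 8-week db/db, 16-week db/db and HFD. Bambi, a decoy receptor, was at 10.8, 8.45, 7.07 and 5.70 CPM and Smad4, the shared SMAD partner, at 47.8, 55.5, 45.1 and 46.7 CPM. Rgmb was at 13.2, 5.75, 6.06 and 10.2 CPM. Fstl1 was at 40.2, 31.2, 1.57 and 18.3 CPM and Nbl1, a BMP-binding antagonist, at 11.95, 9.77, 0.898 and 1.84 CPM. Both were far below their stromal levels. Free stromal RNA differed between these libraries as well. The 6 stromal genes compared above had median shares of 2.48%, 1.54%, 0.101% and 1.04% of their stromal level in Mono/MAC cells. The part of free stromal RNA in the lower antagonists was not tested. In endothelial cells 21 genes passed, with 0 higher and 5 lower in 16-week db/db against HFD, where 5.65% of all genes were higher and 23% lower. The co-receptor Eng was at 483, 494 and 480 CPM and Smad1, which carries the BMP signal, at 190, 192 and 183 CPM in 8-week db/db, 16-week db/db and HFD. The target Hey1 was at 65.1, 40.5 and 43.2 CPM, and Fstl1 at 103, 47.1 and 115 CPM. Bmp3 and Msx1, although the highest of their roles in Mono/MAC cells, reached only 2.24 and 1.31 CPM there.

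Genes with a like pattern were ranked over 15 sums of library and lineage, each of at least 50 cells, among 13858 genes, by Pearson's r of log2(CPM + 10). The points share libraries and depth, so r is given as a description. Closest to Bmp2 were Lif (0.96), Gm17227 (0.92) and Tlr5 (0.91), and closest to Bmp4 were Fez1, Nhs and Ank3 (each 0.96). Gdf10 was most like Myoc (0.99), Scg3 (0.98) and Ccn5 (0.97). Bmp6 was most like 9530082P21Rik, 9530026P05Rik and Lnx1 (each 0.98). Bmpr2 was most like Ebf3, Tshz2 and Dlc1 (each 0.97). The Id genes were most like different genes: Ctnnb1 (0.96), Dach1 and Snrk (both 0.94) for Id1, Bcl2a1d (0.87), Kmt5a (0.85) and Mir155hg (0.84) for Id2, and Thra, Ptpn21 (both 0.91) and Galnt15 (0.90) for Id3.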

How the data were processed

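SVF cells of BAT from WT, 8-week db/db, 16-week db/db and HFD mice were sequenced with 10x Genomics 3′ chemistry, 1 library of pooled cells per group. The deposited values were raw UMI counts, produced by the authors with Cell Ranger on mm10 (version 7.1.0 per the labels, 6.0.0 per the file headers). Groups were taken from sample titles and genotype labels.

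The members and all gene lists were chosen with earlier results of these data known. Cells were gated on raw marker counts, a rule that leaves cells with mixed markers (8.92% to 23.2% of kept cells) in no lineage. No doublet caller was run. CPM were sums over cells divided by all UMIs of those cells. Counts were given exact Poisson intervals, shares exact Clopper-Pearson intervals and ratios exact conditional binomial intervals, all of 95% and for counting error only. A count of 0 was limited by a floor of 3 counts. As there was 1 library per group, no test was run. Pathway genes were named by rule: at most 4 per lineage that differed from WT in 1 direction in all 3 obese libraries, ranked by the smallest log2 ratio among genes of at least 10 CPM, and for each role the gene with the highest level. The alternatives were a stricter and a looser gate, no mitochondrial limit, another denominator, a mean over cells, centring on the median gene, a minimum of 20 UMIs and the whole interval past 2-fold. Subsets alone and cells low in immediate-early RNA were added after the data were seen. The ratio step was tested on simulated data. Python 3.11.15, numpy 2.4.6, scipy 1.17.1, pandas 2.3.3 and matplotlib 3.10.9 were used. The genes most like Bmpr1a are not reported here.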

Additional observations from a re-analysis of the deposited data

How the results depend on the processing

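Of 83 recomputed counts of members past 2-fold, 74 stayed within 1.5 times the value given. In Mono/MAC cells the count of 2 in 8-week db/db against WT became 1 with the stricter gate, with the whole interval past 2-fold, in Lyve1/Folr2 macrophages alone and in cells under 1% immediate-early UMIs, and 4 with the mean of per-cell CPM. With a minimum of 20 UMIs the count of 3 became 5 in both 16-week db/db and HFD against WT. The count of 7 in 16-week db/db against 8-week db/db became 4 with the whole interval. In stromal cells the count of 4 in HFD against WT became 2 in cells under 1% immediate-early UMIs. Of 268 recomputed ratios of members past 2-fold, 3 changed sign, all in stromal cells against WT: Gdf10 of 16-week db/db to -0.00787 in Col15a1/Col4a1 cells alone, and Id3 to 0.00370 in 8-week db/db and 0.19 in 16-week db/db in cells under 1% immediate-early UMIs. Another 60 moved by more than counting error in the same direction. With the mean of per-cell CPM 30 of 66 ratios moved. Bmp2 in Mono/MAC cells ranged from -5.84 to -3.48 in 16-week db/db and from -5.09 to -3.31 in HFD, and stromal Id1 from 1.07 to 3.88 over all 3 comparisons. Thinning to 2000 UMIs moved 63 of 120 shares, as deeper cells hold more UMIs. No paired analysis was possible because each group has 1 library. Shallow endothelial cells of 16-week db/db and the 83 of 8-week db/db limit the endothelial values.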
